A study of Mus musculus with 16 samples.

Results

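T cells read antigen in part as a calcium signal, and 10 genes of calcium entry and of the ion channels around it were followed here through CD8+ T cell activation in culture. The genes were Orai1, Orai2, Orai3, Stim1, Stim2, Kcnn4, Kcna3, Trpm1, Trpm4 and P2rx7. They were taken by symbol from a matrix of raw RNA-seq counts with 34573 gene symbols. All 10 had a row, and all 10 were among the 14332 genes with enough counts to be tested.

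When a T cell receptor is engaged, calcium leaves the endoplasmic reticulum, STIM proteins in its membrane sense the emptied store, and they open ORAI pores in the plasma membrane. This store-operated entry sustains the calcium signal that activates calcineurin and the transcription factor NFAT. Potassium leaving through KCNN4 and KCNA3 keeps the membrane negative and so keeps calcium flowing in, TRPM4 admits sodium when calcium rises, and P2RX7 is a cation channel opened by extracellular ATP. TRPM1 is known from retinal ON bipolar cells and melanocytes.

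The libraries came from C57BL/6 mice, with naive CD8+ T cells isolated from spleen and 200000 cells per library. Tn cells were unstimulated and were sorted on day 0 as CD44- CD62L+ cells. All other cells had been stimulated with anti-CD3e and anti-CD28 at 10 µg/ml each and had received 300 U/ml IL-2 after a night. Teff1 cells were PD-1+ TIM-3- on day 2, Tex cells were PD-1+ TIM-3+ on day 5, and Teff2 cells were PD-1+ TIM-3- on day 5. Each state had 3 RNA-seq libraries. Tex and Teff2 were thus the TIM-3+ and TIM-3- cells of 1 time point in an acute culture, with no chronic infection or tumour. No label states that the replicates came from different mice or cultures, and the p-values below therefore reflect library-to-library variation that could be technical. In such bulk samples fewer cells of a type and less RNA per cell cannot be told apart.

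Library totals ran between 14668884 and 21162206 counts, so that 3 counts, the limit a count of 0 allows, stood for 0.143 to 0.204 CPM (counts scaled to a common library total). All 8 CD8 T cell markers were found in every state, with sums of 3038 to 4759 CPM in Tn, 2433 to 2576 CPM in Teff1, 2304 to 2753 CPM in Tex and 2436 to 2812 CPM in Teff2. Markers of other spleen cells were uneven among the Tn libraries. In replicates 1, 2 and 3 of Tn the 9 B cell markers summed to 628, 55.8 and 1250 CPM, the 5 MHC class II genes to 1390, 119 and 2107 CPM, and the 6 NK cell markers to 126, 4.84 and 243 CPM. The 10 macrophage and monocyte markers found summed to 323, 97.7 and 171 CPM there. In the activated states these 4 sums lay between 3.09 and 125 CPM. Results that rest on Tn replicates 1 and 3 are therefore also given without them, as are results that rest on replicate 1 of the activated states, which stood apart for several of the channels. Replicate 1 was singled out by the levels of these channels, so fits without it describe the data and are no independent tests of them.

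The start regions of Orai1, Orai2 and Trpm1 are shown because Orai1 and Orai2 moved in opposite directions and Trpm1 was lower in each activated state than in Tn. Each window holds 250 bases before and 50 after an annotated start, from RefSeq on GRCm38.p6, read 5′ to 3′ along the gene. Orai1 lies at chr5:123014824-123015123 on the plus strand, Orai2 at chr5:136170607-136170906 on the minus strand, and Trpm1 has 2 annotated starts on the plus strand, at chr7:64153585-64153884 and chr7:64185209-64185508. Capitals mark matches on either strand to the NFAT core GGAAA, the AP-1 site TGANTCA or the E-box CACGTG, none of which overlapped another here.
Orai1: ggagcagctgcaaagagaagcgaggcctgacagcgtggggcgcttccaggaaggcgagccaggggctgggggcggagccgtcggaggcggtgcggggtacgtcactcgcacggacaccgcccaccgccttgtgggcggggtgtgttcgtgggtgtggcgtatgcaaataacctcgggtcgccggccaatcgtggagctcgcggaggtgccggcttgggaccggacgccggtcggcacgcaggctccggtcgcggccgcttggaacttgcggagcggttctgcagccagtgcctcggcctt
Orai2: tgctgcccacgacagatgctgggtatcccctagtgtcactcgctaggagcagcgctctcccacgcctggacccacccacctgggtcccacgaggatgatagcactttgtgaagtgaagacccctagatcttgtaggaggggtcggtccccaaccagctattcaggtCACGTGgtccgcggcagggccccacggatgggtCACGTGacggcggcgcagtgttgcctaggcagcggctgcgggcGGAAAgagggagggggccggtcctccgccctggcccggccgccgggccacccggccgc
Trpm1 first start: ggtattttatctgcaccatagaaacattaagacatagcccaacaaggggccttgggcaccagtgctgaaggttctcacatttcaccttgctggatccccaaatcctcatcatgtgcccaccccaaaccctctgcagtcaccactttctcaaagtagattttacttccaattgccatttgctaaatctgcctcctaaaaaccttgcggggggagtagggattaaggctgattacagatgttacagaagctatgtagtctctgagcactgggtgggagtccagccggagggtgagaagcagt
Trpm1 second start: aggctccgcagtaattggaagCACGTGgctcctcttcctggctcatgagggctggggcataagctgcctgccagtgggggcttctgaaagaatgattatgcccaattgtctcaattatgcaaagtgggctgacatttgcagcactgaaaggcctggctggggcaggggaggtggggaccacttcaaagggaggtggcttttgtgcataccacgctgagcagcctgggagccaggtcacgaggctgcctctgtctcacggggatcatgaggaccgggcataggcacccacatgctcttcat
The Orai2 window held 1 NFAT core and 2 E-boxes, the second Trpm1 window held 1 E-box, and the Orai1 window and the first Trpm1 window held none of the 3 motifs. Of the 10 genes, 9 had 11 windows in the RefSeq table, and Trpm4 had none. The NFAT core was found in 4 of the 11, the AP-1 site in 1 and the E-box in 3. Over all 32851 windows of 300 bases, 61.3% held the NFAT core, 7.81% the AP-1 site and 7.15% the E-box. The AP-1 match was in the first P2rx7 window, at chr5:122643677-122643976. G and C made up 70.3% of the Orai1 window, 68.0% of the Orai2 window and 48.3% and 57.3% of the first and second Trpm1 windows.

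The comparison with unstimulated cells asked what activation changed. Against Tn, Orai1, Stim2 and Kcnn4 rose in all 3 activated states, while Orai2, Stim1 and Trpm1 fell in all 3. P2rx7 fell in Tex and in Teff2. Orai3, Kcna3 and Trpm4 did not pass the test in any of the 3 states. The test was edgeR's quasi-likelihood F test on all 12 libraries, called at a Benjamini-Hochberg adjusted p under 0.05 over all genes tested. In Teff1 against Tn 6 of the 10 genes were called, in a comparison that called 48.9% of all genes (24.5% rose and 24.5% fell). In Tex against Tn 7 of the 10 were called, with 3 that rose and 4 that fell, beside 52.9% of all genes (27.3% rose and 25.6% fell). In Teff2 against Tn 7 were called, again 3 that rose and 4 that fell, beside 48.9% of all genes (25.6% rose and 23.3% fell). These counts are near the background and are by themselves no result about the channel genes. The results below are which member moved in which direction, and by how much. Without Tn replicates 1 and 3, which leaves 1 Tn library that is assumed to vary like the other groups, 5, 6 and 5 of the 10 were called in Teff1, Tex and Teff2, beside 20.0%, 26.2% and 22.1% of all genes. Without replicate 1 of the activated states 8 were called in each, beside 56.3%, 61.2% and 57.4% of all genes. The 3 comparisons share the Tn libraries and are not independent.

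**Figure D1:**
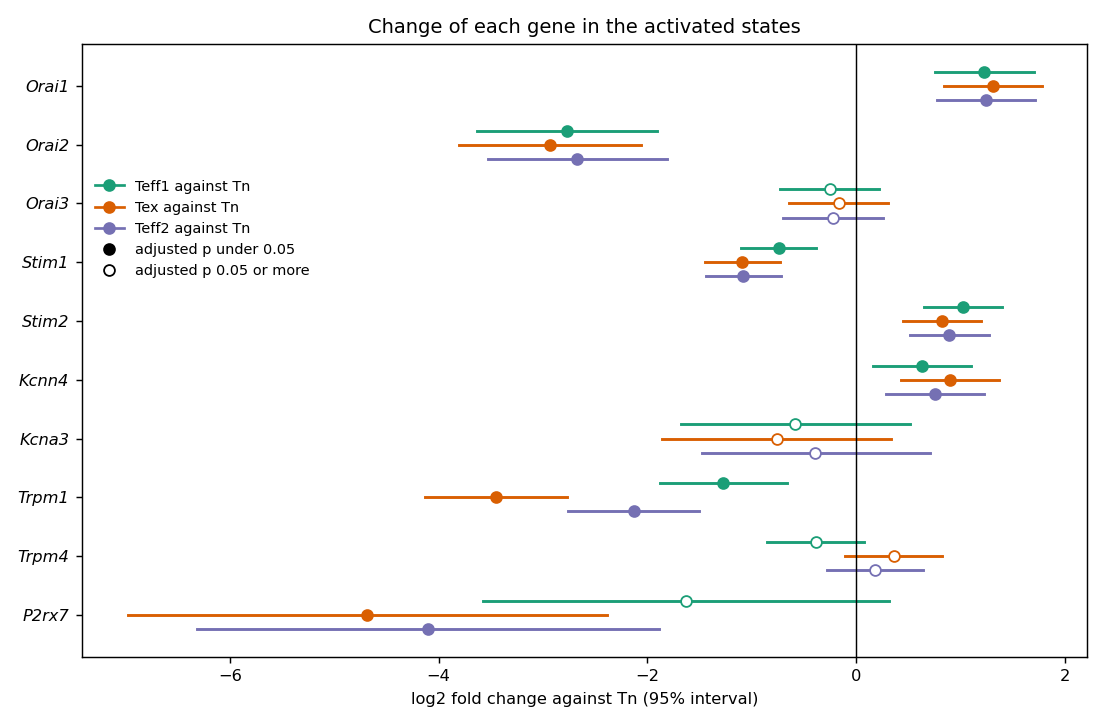
The log2 fold change of each gene in Teff1 (green), Tex (orange) and Teff2 (purple) against Tn is plotted on the x axis with its 95% interval from edgeR. Filled points passed the test at adjusted p under 0.05 and open points did not: Orai1 and Orai2 stand on opposite sides of 0, and the intervals of P2rx7 are the widest.

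The ORAI proteins form the calcium pore. Orai1, the principal pore of store-operated entry in T cells (chromosome 5, 123015074 to 123030452), was low in Tn and higher in every activated library. In replicates 1, 2 and 3, the order used throughout, Orai1 had 33.0, 34.0 and 35.0 CPM in Tn, 85.5, 73.3 and 80.9 CPM in Teff1, 73.2, 110 and 69.5 CPM in Tex, and 79.2, 103 and 60.8 CPM in Teff2. The lowest activated library stood above the highest Tn library, and the Tn libraries lay close together while those of day 5 were spread. Its log2 fold change against Tn was 1.23 in Teff1 (SE 0.22, adjusted p = 0.000794), 1.31 in Tex (SE 0.22, adjusted p = 0.000448) and 1.25 in Teff2 (SE 0.22, adjusted p = 0.000702) by edgeR. These equal 2.35-fold, 2.48-fold and 2.38-fold rises. Between the activated states Orai1 did not differ beyond the spread: the log2 difference was 0.08 in Tex against Teff1 (95% interval -0.39 to 0.54) and 0.02 in Teff2 against Teff1 (-0.45 to 0.48).

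Orai2, a second pore subunit that can assemble with ORAI1 (chromosome 5, 136147456 to 136170697), moved the other way and further. It had 375, 450 and 383 CPM in Tn, 72.4, 55.8 and 48.4 CPM in Teff1, 76.1, 32.0 and 50.3 CPM in Tex, and 99.8, 32.4 and 57.4 CPM in Teff2. No activated library came near any Tn library, and in each activated state replicate 1 was the highest. The log2 fold change against Tn was -2.77 in Teff1 (SE 0.40, adjusted p = 0.000219), -2.93 in Tex (SE 0.40, adjusted p = 0.000127) and -2.67 in Teff2 (SE 0.39, adjusted p = 0.000251), or 6.83-fold, 7.62-fold and 6.36-fold lower. Without replicate 1 of the activated states these values were -2.87, -3.20 and -3.08 in Teff1, Tex and Teff2.

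Orai3, the third family member (chromosome 7, 127769815 to 127775150), was even across the states. It had 19.0, 21.8 and 27.0 CPM in Tn, 13.7, 20.1 and 23.2 CPM in Teff1, 20.2, 21.5 and 18.9 CPM in Tex, and 18.6, 22.4 and 17.3 CPM in Teff2. All 4 ranges overlapped. Its log2 difference from Tn was -0.25 in Teff1 (95% interval -0.73 to 0.22), -0.16 in Tex (-0.64 to 0.31) and -0.22 in Teff2 (-0.70 to 0.26).

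**Figure D2:**
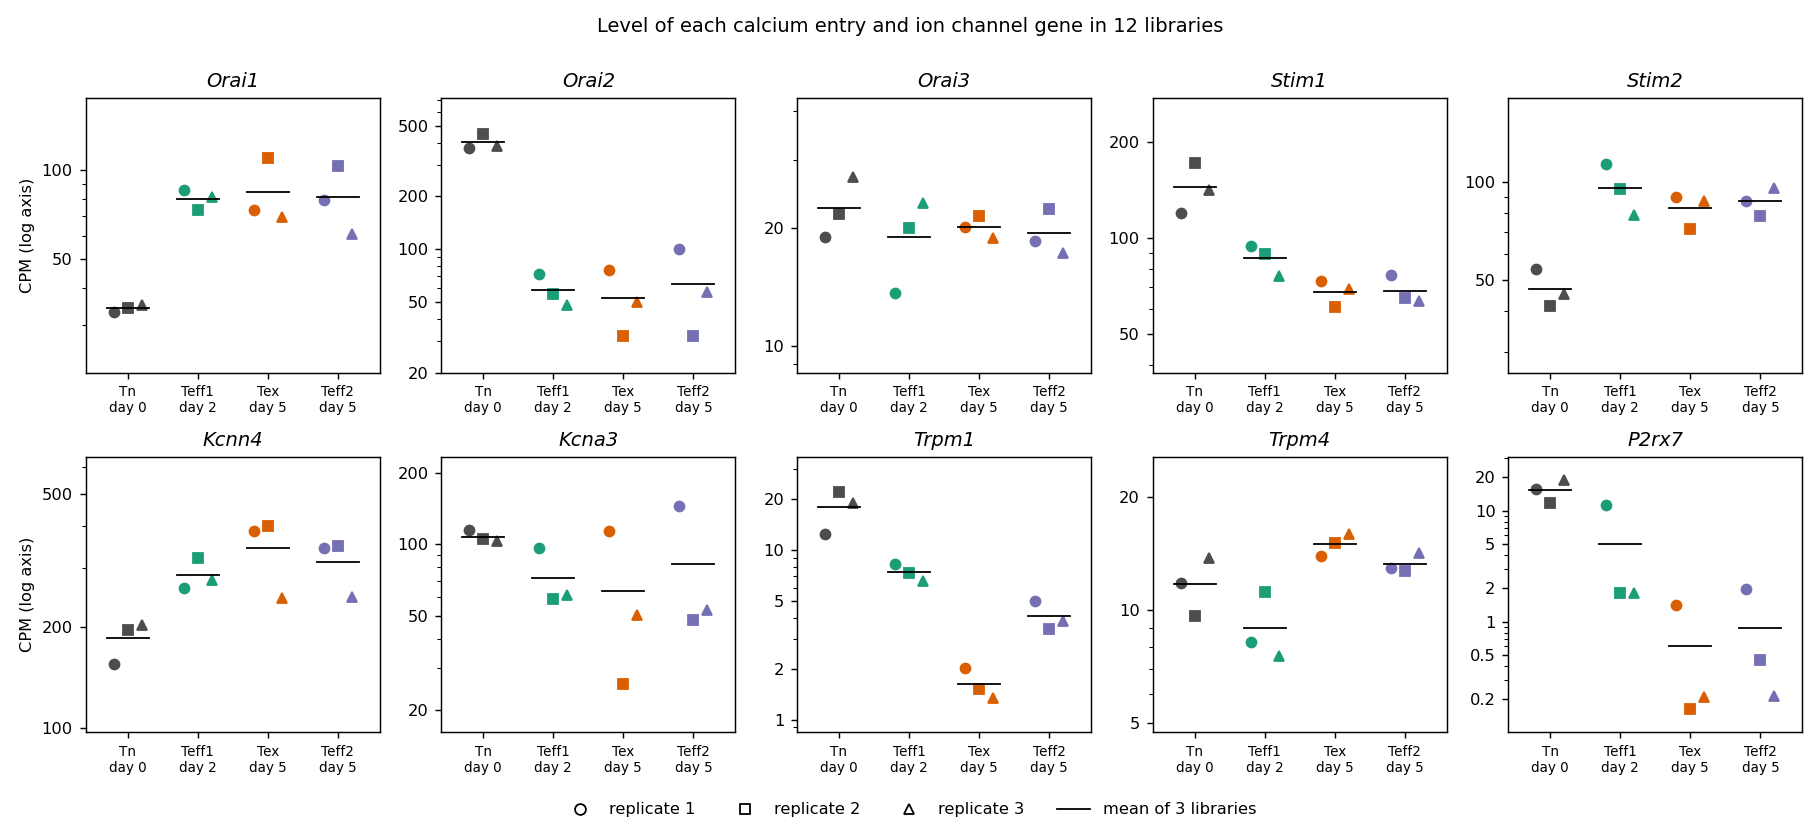
Each panel plots 1 gene's level in CPM (y axis, log scale) in the 3 libraries of Tn, Teff1, Tex and Teff2 (x axis), with 1 point per library (circle, square and triangle for replicates 1, 2 and 3) and a line at the mean. Orai2 and Trpm1 stand highest in Tn and Orai1 lowest in Tn, and replicate 1 stands above replicates 2 and 3 for P2rx7 and Kcna3 in the activated states.

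The count ratio of Orai2 to Orai1 was taken in each library as a description of these opposite changes. An exact permutation test against Tn gave p = 0.1 in each activated state, for this ratio and the ratios below. That is the smallest value 3 libraries against 3 allow, so the test cannot decide. Counts were not scaled to gene length, so that only the change of the ratio between states can be read. It was 11.3, 13.2 and 11.0 in Tn, 0.847, 0.761 and 0.599 in Teff1, 1.04, 0.289 and 0.724 in Tex, and 1.26, 0.316 and 0.943 in Teff2. The geometric mean was 16.2-fold lower in Teff1 than in Tn, 19.6-fold lower in Tex and 16.4-fold lower in Teff2, with no overlap of any activated library with Tn.

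STIM1 and STIM2 are the calcium sensors of the endoplasmic reticulum, STIM2 answering to smaller losses of stored calcium. Stim1 (chromosome 7, 102261514 to 102437319) had 120, 172 and 141 CPM in Tn, 94.1, 89.2 and 76.0 CPM in Teff1, 73.2, 60.6 and 69.4 CPM in Tex, and 76.5, 65.0 and 63.4 CPM in Teff2. All Tn libraries stood above all activated ones. The gene fell by 0.74 on the log2 scale in Teff1 (SE 0.16, adjusted p = 0.00327), by 1.09 in Tex (SE 0.17, adjusted p = 0.00026) and by 1.08 in Teff2 (SE 0.17, adjusted p = 0.00033) against Tn in edgeR's test. Tex and Teff2 differed from Teff1 by -0.35 and -0.34, short of the threshold (adjusted p = 0.312 and 0.455).

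Stim2 (chromosome 5, 53998523 to 54121057) rose where Stim1 fell. It had 53.9, 41.6 and 45.3 CPM in Tn, 113, 94.6 and 78.9 CPM in Teff1, 90.0, 71.7 and 87.4 CPM in Tex, and 87.4, 78.6 and 95.5 CPM in Teff2. No activated library was as low as the highest of Tn. The log2 fold change was 1.03 in Teff1 (SE 0.17, adjusted p = 0.000606), 0.82 in Tex (SE 0.17, adjusted p = 0.00195) and 0.89 in Teff2 (SE 0.17, adjusted p = 0.00136). The count ratio of Stim1 to Stim2 was 2.22, 4.13 and 3.12 in Tn, 0.832, 0.943 and 0.963 in Teff1, 0.813, 0.845 and 0.794 in Tex, and 0.876, 0.827 and 0.664 in Teff2. It was 3.36-fold lower in Teff1 than in Tn, 3.74-fold lower in Tex and 3.90-fold lower in Teff2. The spread of this ratio was wide in Tn and narrow in Tex.

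**Figure D3:**
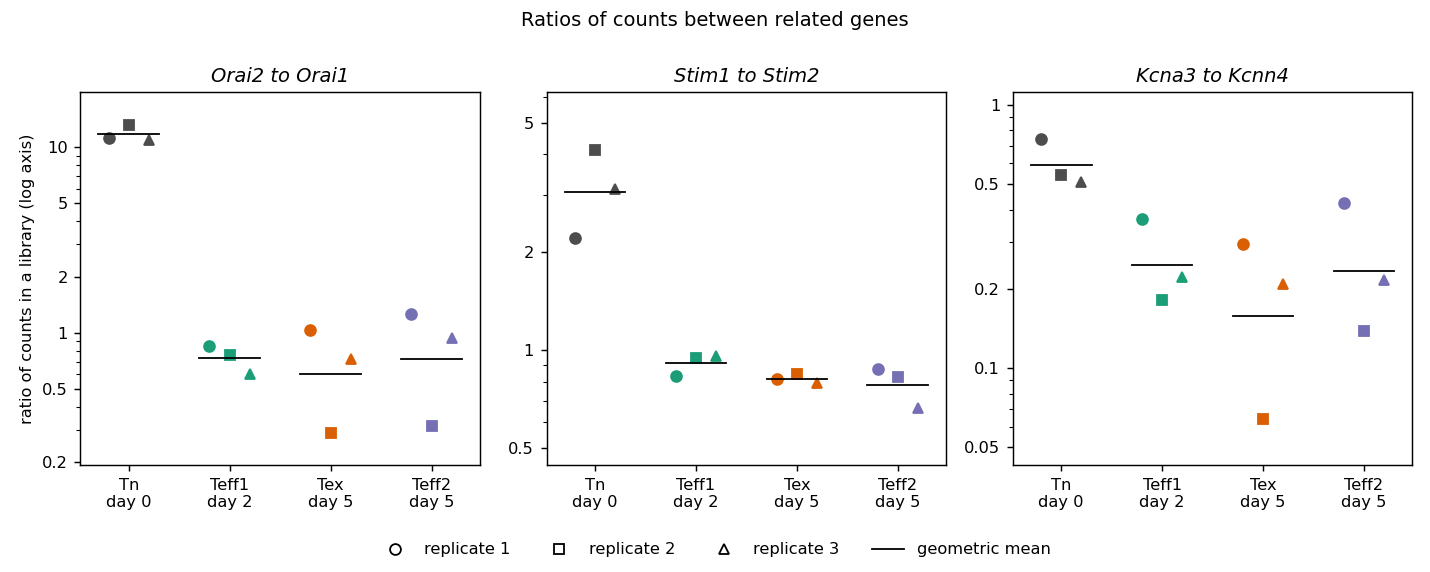
The panels plot, for each library of Tn, Teff1, Tex and Teff2 (x axis), the count ratio of Orai2 to Orai1, of Stim1 to Stim2 and of Kcna3 to Kcnn4 on a log y axis, with a line at the geometric mean. All activated libraries lie below all Tn libraries in each panel, the highest activated Orai2 to Orai1 ratio being 1.26 and the lowest in Tn 11.0.

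KCNN4 (KCa3.1) is the calcium-activated potassium channel of lymphocytes. Kcnn4 (chromosome 7, 24369826 to 24385212) had 155, 196 and 203 CPM in Tn, 261, 322 and 276 CPM in Teff1, 387, 402 and 244 CPM in Tex, and 344, 349 and 246 CPM in Teff2. All activated libraries stood above all Tn libraries. Its log2 fold change against Tn was 0.63 in Teff1 (SE 0.22, adjusted p = 0.0287), 0.90 in Tex (SE 0.22, adjusted p = 0.00447) and 0.76 in Teff2 (SE 0.22, adjusted p = 0.0121) by edgeR. These are the least firm of the rises. With Tn replicate 2 as the only Tn library the same values were 0.53 (adjusted p = 0.282), 0.80 (adjusted p = 0.11) and 0.66 (adjusted p = 0.184) in Teff1, Tex and Teff2, and none was called. The Teff1 call also ended with upper-quartile scaling (0.50, adjusted p = 0.073) and without Tn replicate 1 (0.53, adjusted p = 0.107), Tn replicate 2 (0.67, adjusted p = 0.0537) or Teff1 replicate 2 (0.56, adjusted p = 0.0895). The Teff2 call ended without Tn replicate 1 (0.65, adjusted p = 0.054).

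KCNA3 (Kv1.3) is the voltage-gated potassium channel of T cells. Kcna3 (chromosome 3, 107036162 to 107038129) had 115, 106 and 103 CPM in Tn, 96.5, 58.6 and 61.4 CPM in Teff1, 114, 25.8 and 50.6 CPM in Tex, and 146, 48.1 and 53.0 CPM in Teff2. Replicates 2 and 3 of every activated state stood below all Tn libraries, whereas replicate 1 was close to Tn in Teff1 and Tex and above it in Teff2. With all libraries the log2 difference from Tn was -0.58 in Teff1 (adjusted p = 0.358), -0.76 in Tex (adjusted p = 0.221) and -0.39 in Teff2 (adjusted p = 0.544), none of them called. Without replicate 1 of the activated states Kcna3 fell in all 3, by 0.77 in Teff1 (adjusted p = 0.0196), by 1.41 in Tex (adjusted p = 0.000819) and by 1.01 in Teff2 (adjusted p = 0.00532). That fit left out the libraries where Kcna3 was highest and kept Tn replicate 1. It therefore favours a fall and is no independent test of Kcna3. The count ratio of Kcna3 to Kcnn4 was 0.742, 0.541 and 0.507 in Tn, 0.369, 0.182 and 0.222 in Teff1, 0.296, 0.0641 and 0.208 in Tex, and 0.425, 0.138 and 0.216 in Teff2. Here replicate 1 of the activated states also stayed below every Tn library. The ratio was 2.39-fold lower in Teff1, 3.72-fold lower in Tex and 2.52-fold lower in Teff2 than in Tn.

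Kcna3 is a short gene with a neighbour: the long non-coding RNA AI504432 (chromosome 3, 107039504 to 107054322) begins 1374 bases past the annotated Kcna3 end. It had 86.6, 86.3 and 71.9 CPM in Tn, 80.4, 55.6 and 53.0 CPM in Teff1, 72.0, 24.9 and 43.4 CPM in Tex, and 96.9, 45.8 and 51.1 CPM in Teff2. Like Kcna3, AI504432 was highest in replicate 1 of each activated state. Whether the counting used strand is not given in the sources used here, and whether transcripts of the 2 genes were counted apart was not tested.

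The standing of replicate 1 was measured for each channel as its log2 level, with 0.5 CPM added, minus the mean of replicates 2 and 3. For P2rx7 this was 2.37 in Teff1, 1.49 in Tex and 1.59 in Teff2, against 0.08 in Tn. For Kcna3 it was 0.68, 1.65 and 1.52 in Teff1, Tex and Teff2, and 0.14 in Tn. For Orai2 it was 0.47, 0.92 and 1.20 in the same states, and -0.15 in Tn. The other 7 genes deviated by at most 0.64 in size in any activated state, and Orai1 by -0.26 to 0.15. The labels name no batch or day that sets replicate 1 apart.

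**Figure D4:**
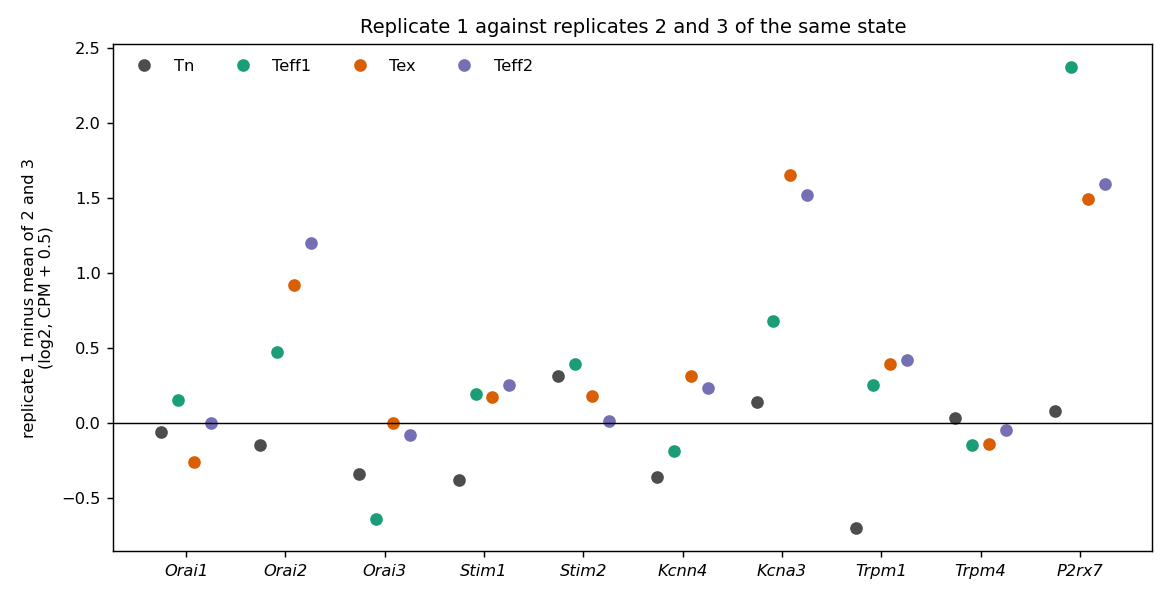
For each gene (x axis) the points give the log2 level of replicate 1 minus the mean of replicates 2 and 3 (y axis, log2 of CPM + 0.5), in Tn (grey), Teff1 (green), Tex (orange) and Teff2 (purple). P2rx7, Kcna3 and Orai2 lie above 0 in all 3 activated states, P2rx7 by 1.49 to 2.37, and near 0 in Tn.

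TRPM1 is a cation channel, and its gene (chromosome 7, 64153835 to 64269772) separated all 4 states. Trpm1 had 12.5, 22.1 and 19.1 CPM in Tn, 8.33, 7.32 and 6.55 CPM in Teff1, 2.03, 1.51 and 1.35 CPM in Tex, and 5.00, 3.42 and 3.82 CPM in Teff2. Every Tex library stood below every Teff2 library, every Teff2 library below every Teff1 library, and every Teff1 library below every Tn library. Against Tn the log2 fold change was -1.27 in Teff1 (SE 0.28, adjusted p = 0.00307), -3.45 in Tex (SE 0.31, adjusted p = 8.45e-06) and -2.13 in Teff2 (SE 0.29, adjusted p = 0.00015). Trpm1 was the 1 member called in Tex against Teff1, where it fell by 2.18 (SE 0.30, adjusted p = 0.00357 by edgeR), in a comparison that called 3.01% of all genes (2.16% rose and 0.851% fell). In Teff2 against Teff1 it stood at -0.86 (adjusted p = 0.228) and no member was called, beside 0.67% of all genes. At an unadjusted p under 0.05 edgeR counted 3 members there (Trpm1, Trpm4 and P2rx7), and DESeq2 called 0.

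The comparison of Tex with Teff2 asked what set TIM-3+ cells apart from TIM-3- cells of the same day. With all 12 libraries 1 gene of 14332 was called (0.00698%) and no member, and Trpm1 had an unadjusted p of 0.00079 (log2 difference -1.32, adjusted p = 1 by edgeR). It was the only member with an unadjusted p under 0.05 there, and DESeq2 called 0 members. Libraries of Tex and Teff2 with the same replicate number deviated together, with r of 0.81, 0.72 and 0.67 over genes, so they were also compared in 3 pairs. Within pairs Trpm1 fell by 1.33 in Tex (SE 0.23, 95% interval -1.84 to -0.81, adjusted p = 0.0252), and it was lower in Tex in 3 of 3 pairs, by 1.12, 0.96 and 1.22 with 0.5 CPM added. It was the 1 member called of 9 tested, where 1.69% of all genes were called and 0.725% fell. The other 8 within pairs lay between -0.43 for Kcna3 (95% interval -0.73 to -0.13, adjusted p = 0.158) and 0.17 for Trpm4 (-0.09 to 0.43, adjusted p = 0.488). P2rx7 had too few counts at day 5 for that fit. For the ORAI and STIM genes the intervals were narrow. In Tex against Teff2 Orai1 differed by 0.05 (-0.14 to 0.25), Orai2 by -0.22 (-0.42 to -0.01, adjusted p = 0.28), Stim1 by -0.02 (-0.20 to 0.16) and Stim2 by -0.08 (-0.25 to 0.10).

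Trpm1 counts were few, with 37, 28 and 26 in Tex and 98, 53 and 71 in Teff2. A list of 7 mast cell and melanocyte markers, all found, summed to 55.2 to 92.8 CPM in Tn, 5.28 to 13.8 CPM in Teff1, 7.45 to 9.45 CPM in Tex and 4.19 to 12.7 CPM in Teff2. In Tn most of it was Pmel, a melanosome gene, with 79.4, 45.4 and 58.5 CPM there and means of 7.36, 4.32 and 6.33 CPM in Teff1, Tex and Teff2. Kit, a growth factor receptor of the same list, had 10.4, 7.42 and 15.3 CPM in Tn, 2.71, 0.380 and 0.424 CPM in Teff1, 2.53, 4.91 and 4.32 CPM in Tex, and 1.33, 2.00 and 3.28 CPM in Teff2. Kit was higher in Tex than in Teff2 in each of the 3 replicate pairs. Pmel was lower in Tex in pairs 1 and 3 (6.92 against 11.3 and 3.49 against 5.48 CPM). In pair 2 Pmel was higher in Tex (2.54 against 2.19 CPM). Cpa3, also of this list, had 2.98, 2.32 and 3.17 CPM in Tn and at most 0.285 CPM in any activated library. The part of these genes in the Trpm1 result was not tested. Tyr, the enzyme that starts melanin synthesis, had 0 counts in every library, and Mlana and Dct had at most 2 counts in a Tn library and 0 in the activated ones. Mir211, a microRNA gene that lies within Trpm1, had 5, 1 and 2 counts in Tn and 0 in all 9 activated libraries.

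TRPM4 is a sodium-permeable channel that calcium opens from inside the cell. Trpm4 (chromosome 7, 45303155 to 45334071) had 11.8, 9.67 and 13.8 CPM in Tn, 8.23, 11.2 and 7.58 CPM in Teff1, 14, 15.1 and 16.0 CPM in Tex, and 13, 12.7 and 14.2 CPM in Teff2. The Tex libraries stood above all Tn and Teff1 libraries, and those of Teff2 above all of Teff1. In edgeR's test Tex differed from Teff1 by 0.74 (SE 0.21, adjusted p = 0.0891) and from Tn by 0.36 (adjusted p = 0.176), neither called. DESeq2 called the difference between Tex and Teff1 (0.72, adjusted p = 0.0148). The ribosomal protein pseudogene Rpl14-ps1 overlaps Trpm4 and held 64430 counts over the 12 libraries, and whether its reads altered the Trpm4 counts was not tested.

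P2RX7 couples extracellular ATP to calcium and sodium entry and, when opened strongly, to cell death. P2rx7 (chromosome 5, 122643927 to 122692336) had 15.8, 11.7 and 19.0 CPM in Tn, 11.4, 1.81 and 1.82 CPM in Teff1, 1.43, 0.162 and 0.208 CPM in Tex, and 1.99, 0.452 and 0.215 CPM in Teff2. All day 5 libraries stood below all Tn libraries, and replicate 1 of Teff1 lay close to Tn. The log2 fold change against Tn was -1.63 in Teff1 (SE 0.89, adjusted p = 0.149), -4.69 in Tex (SE 1.05, adjusted p = 0.00295) and -4.10 in Teff2 (SE 1.01, adjusted p = 0.00567). Without replicate 1 of the activated states it was -3.02 in Teff1 (adjusted p = 0.000105), -6.24 in Tex (adjusted p = 4.56e-06) and -5.46 in Teff2 (adjusted p = 7.73e-06), all called. In the same fit P2rx7 also fell by 3.23 in Tex (adjusted p = 0.00969) and by 2.44 in Teff2 (adjusted p = 0.0387) against Teff1. With all libraries neither was called (adjusted p = 0.137 and 0.32 by edgeR). The fit without replicate 1 left out the libraries where P2rx7 was highest in each activated state. Its calls are therefore no independent test of P2rx7. The day 5 values rest on few counts, 26, 3 and 4 in Tex and 39, 7 and 4 in Teff2. B cells and macrophages can express P2rx7 as well, and their marker sums in Tn are given above. Without Tn replicates 1 and 3 the log2 fold change was -1.23 in Teff1, -4.30 in Tex and -3.71 in Teff2, where the call ended in Teff2. The part of other cells in the fall of P2rx7 was not tested.

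The genes most like each member were found by Pearson r of log2 levels, with 0.5 CPM added, over the 12 libraries among 9380 genes with at least 5 CPM on average. The libraries of 4 states are shared by every such pair, so r describes a common pattern and is no test. Orai2 was most like Slc12a7, a potassium-chloride cotransporter (r = 0.994), and Smarca2, a chromatin remodelling ATPase (r = 0.993). Stim1 was most like Fam134c (r = 0.981) and Tlr12 (r = 0.980), P2rx7 like Smad3, a transducer of TGF-beta signals (r = 0.979), and Fam168b (r = 0.976), and Stim2 like Ascc2 (r = 0.975) and Ghitm (r = 0.969). Trpm1 was most like Pacsin1 (r = 0.972) and Slc35e2 (r = 0.969), Orai1 like Sh3rf1 (r = 0.970) and Fzr1, an activator of the anaphase-promoting complex (r = 0.966), and Kcna3 like AI504432 (r = 0.977) and Grb7 (r = 0.959). Kcnn4 was most like Fosl1, an AP-1 subunit (r = 0.948), and Ipo4 (r = 0.944). Orai3 was most like Meis3 (r = 0.948) and Lpar5 (r = 0.878), and Trpm4 like Unc119 (r = 0.921) and Acot11 (r = 0.914).

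The genes that act around the channels were read from 12 lists, described by counts and medians only. Of all genes 48.9% were called in Teff1 against Tn, 52.9% in Tex and 48.9% in Teff2, with 23.3% to 27.3% in each direction, and a list's count near these shares is no result about the list. The fit without Tn replicates 1 and 3 called 20.0%, 26.2% and 22.1%, and a call can end there because 1 Tn library is left. Among regulators of STIM and ORAI, 2 of 8 tested rose and 2 fell in Teff1 against Tn, and 3 rose and 2 fell in Tex and in Teff2, with median log2 fold changes of 0.15, 0.22 and 0.09 in Teff1, Tex and Teff2 (-0.06, 0.00 and 0.00 over all genes). The shares called were 50%, 62.5% and 62.5%. Atp2a2, the SERCA2 pump that refills the store, rose to 394 ± 57.7 CPM in Teff1, 383 ± 32.9 CPM in Tex and 385 ± 122 CPM in Teff2, against 140 ± 4.84 CPM in Tn (SD, n = 3 each). Efcab4b (Cracr2a), a cytosolic protein that stabilises the ORAI1 and STIM1 complex, fell to 7.05 ± 1.76 CPM in Teff1, 4.49 ± 0.821 CPM in Tex and 5.16 ± 1.61 CPM in Teff2, against 36.2 ± 6.54 CPM in Tn. Tmem66 (Saraf), which switches STIM off, fell to 374 ± 101 CPM in Teff1, 278 ± 26.4 CPM in Tex and 270 ± 56.3 CPM in Teff2, against 627 ± 143 CPM in Tn. The calls of these 3 genes held in each state without Tn replicates 1 and 3 (adjusted p of 0.00119 to 0.037 by edgeR). In that fit 3 of the 4 calls of the list in Teff1 and 3 of the 5 in Tex and in Teff2 remained, with medians of -0.01, 0.08 and -0.05 in Teff1, Tex and Teff2.

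Among genes of inositol trisphosphate (IP3) production and calcium release, 1 of 11 rose and 6 fell in each activated state, with medians of -0.68 in Teff1, -1.08 in Tex and -0.69 in Teff2. The share called was 63.6% in each, and the medians without Tn replicates 1 and 3 were -0.63, -0.50 and -0.43. The IP3 receptor genes Itpr2 and Itpr3 fell in Tex to 42.6 ± 9.55 and 84.7 ± 16.6 CPM, against 260 ± 19.8 and 415 ± 51.9 CPM in Tn (log2 fold changes of -2.61 and -2.29, adjusted p = 1.32e-05 and 2.28e-05 by edgeR). Itpkb, a kinase that consumes IP3, fell to 102 ± 22.5 CPM in Teff1, against 369 ± 34.7 CPM in Tn. Its relative Itpka was the gene that rose, at 3.72 ± 0.312 CPM in Teff1, against 0.278 ± 0.101 CPM in Tn. With Tn replicate 2 alone, 4 of the 6 falls and the rise of Itpka remained called in each state. Plcg2, a phospholipase used by B cells, was not called there (log2 -0.99, adjusted p = 0.262 in Teff1).

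Of the calcium pumps and exchangers, 2 of 9 rose in each state, while 5 fell in Teff1 and 4 in Tex and in Teff2, with medians of -1.25, -0.05 and 0.04 in Teff1, Tex and Teff2. Without Tn replicates 1 and 3 the medians were -0.07, 0.12 and 0.18. That fit tested 8 genes of the list, so the medians of the 2 fits cover unlike sets of genes. Atp2a3, the SERCA3 pump of blood cells, fell to 210 ± 15.9 CPM in Tex and 221 ± 22.5 CPM in Teff2, against 570 ± 75.1 CPM in Tn (log2 -1.44 and -1.36, adjusted p = 0.000204 and 0.000333), while Atp2a2 rose. Atp2b4, a plasma membrane calcium pump, was higher in Tex than in Teff1, at 28.1 ± 14.8 and 5.23 ± 3.55 CPM (log2 2.42, adjusted p = 0.0325, and 3.39 without replicate 1 of the activated states). With Tn replicate 2 alone, 1 rise and 1 fall of this list remained in each state. Of 10 mitochondrial uptake genes 4 rose in Teff1, 7 in Tex and 6 in Teff2, and 1 fell in Tex and in Teff2 (medians 0.40, 0.68 and 0.45), where 24.5%, 27.3% and 25.6% of all genes rose. Vdac1, a channel of the outer mitochondrial membrane, rose to 263 ± 62.0 CPM in Teff1, 283 ± 66.2 CPM in Tex and 262 ± 60.9 CPM in Teff2, against 81.0 ± 15.7 CPM in Tn. Ccdc109b (Mcub), an inhibitory subunit of the mitochondrial calcium uniporter, rose to 6.79 ± 0.820 CPM in Teff1, 16.0 ± 3.29 CPM in Tex and 16.2 ± 3.46 CPM in Teff2, against 2.40 ± 0.565 CPM in Tn, and it also rose in Tex against Teff1 (log2 1.23, adjusted p = 0.0273). With Tn replicate 2 alone 4 rises of the mitochondrial list remained in Teff1, 5 in Tex and 4 in Teff2 (medians 0.50, 0.82 and 0.58).

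Downstream of entry, 6 of 9 calmodulin-dependent kinase genes fell in each state, and 1 rose in Tex and in Teff2 (medians -1.43 in Teff1, -1.08 in Tex and -1.12 in Teff2). Camkk1, a kinase that activates CaMKI and CaMKIV, fell to 1.93 ± 0.193 CPM in Tex and 1.84 ± 0.445 CPM in Teff2, against 12.1 ± 0.335 CPM in Tn (log2 -2.64 and -2.71, adjusted p = 2.21e-05 and 2.28e-05). Camk2b, a CaMKII subunit, fell to 1.63 ± 0.361 CPM in Teff1, against 9.48 ± 0.610 CPM in Tn. Camk2d, another CaMKII subunit, fell to 30.2 ± 1.95 CPM in Tex, against 55.1 ± 10.0 CPM in Teff1 (log2 -0.87, adjusted p = 0.0135), a call that ended without replicate 1 of the activated states (-0.67, adjusted p = 0.0509). With Tn replicate 2 alone, 4 of the 6 falls remained in Teff1 and in Teff2 and all 6 in Tex. Of 13 calmodulin and calcineurin genes, 2 rose and 2 fell in Teff1, 3 rose and 2 fell in Tex, and 1 rose and 2 fell in Teff2 (medians 0.14, 0.41 and 0.27), of which 2, 2 and 1 calls remained without those libraries. Ppp3ca, a catalytic subunit of calcineurin, fell to 30.4 ± 6.38 CPM in Teff1, 38.4 ± 8.95 CPM in Tex and 40.3 ± 14.3 CPM in Teff2, against 96.7 ± 8.88 CPM in Tn. Its Teff2 call ended without Tn replicates 1 and 3 (log2 -1.13, adjusted p = 0.0575). Fkbp1a, which encodes FKBP12, a protein that binds calcium release channels and the drug FK506, rose to 475 ± 160 CPM in Teff1, 615 ± 68.0 CPM in Tex and 568 ± 82.3 CPM in Teff2, against 115 ± 7.38 CPM in Tn.

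**Figure D5:**
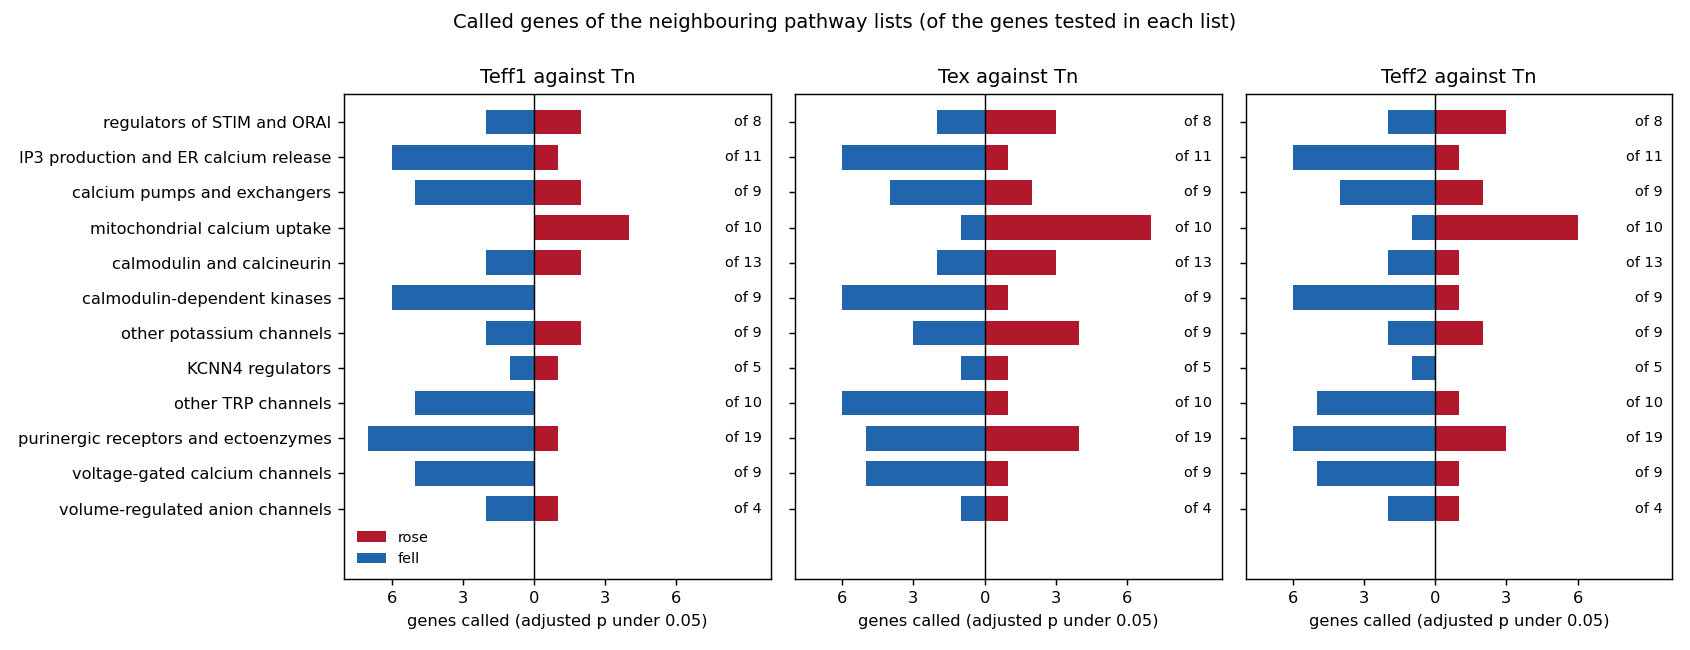
For each of 12 lists of neighbouring genes (y axis) the bars count the genes called at adjusted p under 0.05 that rose (red, right) or fell (blue, left) in Teff1, Tex and Teff2 against Tn, with the number tested at the right edge. Mitochondrial uptake genes had 4, 7 and 6 rises of 10, where 24.5%, 27.3% and 25.6% of all genes rose. Calmodulin-dependent kinases had 6 falls of 9 in each state, where 24.5%, 25.6% and 23.3% of all genes fell. In either direction, 40% of the mitochondrial list was called in Teff1, below the 48.9% of all genes.

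Of the other potassium channels 9 of 22 could be tested. Of these 2 rose and 2 fell in Teff1 and in Teff2, and 4 rose and 3 fell in Tex. Their medians were -0.19 in Teff1, -0.16 in Tex and -0.34 in Teff2, and the shares called were 44.4%, 77.8% and 44.4%. Without Tn replicates 1 and 3 the medians were -0.10, 0.12 and 0.54, over 10 genes tested rather than 9. Kcnk5 (TASK-2), a background potassium channel, rose to 48.5 ± 19.3 CPM in Teff1, 63.2 ± 13.7 CPM in Tex and 52.3 ± 20.7 CPM in Teff2, against 2.76 ± 2.33 CPM in Tn. Kcnq5, a voltage-gated channel, rose to 26.2 ± 3.49 CPM in Teff1, 18.6 ± 1.86 CPM in Tex and 20.1 ± 2.87 CPM in Teff2, against 4.21 ± 1.20 CPM in Tn. Kcna2 (Kv1.2), a relative of Kcna3, fell to 0.792 ± 0.592 CPM in Teff1, 0.288 ± 0.180 CPM in Tex and 0.551 ± 0.761 CPM in Teff2, against 24.4 ± 6.79 CPM in Tn (log2 -4.92, -6.37 and -5.40, adjusted p = 0.000588, 0.000175 and 0.00039 by edgeR). These 3 genes kept their directions in each state without Tn replicates 1 and 3. The rise of Kcnk5 was then 7.42 in Teff1, 7.81 in Tex and 7.54 in Teff2 on the log2 scale. With all Tn libraries it was 4.11, 4.49 and 4.22. The larger rise rests on a low level in the 1 Tn library left, so its size is not firm. The list kept 3 calls in Teff1 and in Teff2 and 4 in Tex. Of the 5 KCNN4 regulators 1 rose and 1 fell in Teff1 and in Tex, and 1 fell in Teff2 (medians -0.14, 0.12 and 0.00). They were Trim27, a ubiquitin ligase, and Pik3c2b, the lipid kinase through which it restrains KCNN4. Neither was called with Tn replicate 2 alone. Trim27 then stood at 0.81 in Teff1 and 0.47 in Tex, against 0.96 and 0.62 with all Tn libraries (adjusted p = 0.0666 and 0.228 by edgeR). Pik3c2b stood at -0.15 in Teff1, -1.18 in Tex and -0.71 in Teff2, against -1.81, -2.85 and -2.37 with all Tn libraries.

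Of 24 other TRP channel genes 10 passed the filter, of which 5 fell in Teff1, 6 fell and 1 rose in Tex, and 5 fell and 1 rose in Teff2 (medians -1.12, -0.87 and -1.04), where 24.5%, 25.6% and 23.3% of all genes fell. Mcoln3, a channel of endosomes and lysosomes, fell to 3.62 ± 1.32 CPM in Teff1, 0.772 ± 0.184 CPM in Tex and 1.57 ± 0.192 CPM in Teff2, against 12.2 ± 3.20 CPM in Tn. Like Trpm1, Mcoln3 was also called lower in Tex than in Teff1 (log2 -2.22, adjusted p = 0.00959). Trpm2 had no count in Teff1 and 4.00 ± 1.64 CPM in Tn, at least 25.7-fold lower against a floor of 3 counts per library. Pkd2 had no count in Teff1 either, and was at least 26.3-fold higher in Tex and 20.8-fold higher in Teff2 than in Teff1 by the same floor, at 4.09 ± 2.42 and 3.23 ± 1.48 CPM. When Tn replicates 1 and 3 were left out, 12 passed the filter, and 3 falls remained in Teff1, 2 in Tex and 1 in Teff2 (medians -0.67, -0.61 and -0.57).

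Around P2rx7, 1 of 19 purinergic receptor and ectoenzyme genes rose and 7 fell in Teff1, 4 rose and 5 fell in Tex, and 3 rose and 6 fell in Teff2 (medians -0.22, -0.27 and -0.34). The shares called, 42.1%, 47.4% and 47.4%, were below those of all genes. Art2b, the ADP-ribosyltransferase that can open P2RX7 on mouse T cells, fell to 2.87 ± 1.61 CPM in Tex and 4.81 ± 3.79 CPM in Teff2, against 66.2 ± 19.1 CPM in Tn (log2 -4.53 and -3.77, adjusted p = 7.89e-05 and 0.000228). Its calls held without Tn replicates 1 and 3 (adjusted p = 0.0014 and 0.00344) and without replicate 1 of the activated states. Adora2a, an adenosine receptor, rose to 60.2 ± 2.04 CPM in Teff2, against 31.3 ± 11.1 CPM in Tn (log2 0.94, or 1.64 with Tn replicate 2 alone). Entpd1 (CD39), which degrades extracellular ATP, rose within pairs in Tex, at 7.36 ± 6.76 CPM, against 3.03 ± 1.92 CPM in Teff2 (log2 1.16, adjusted p = 0.0482). It was the 1 gene called of 16 of this list tested within pairs, where 1.69% of all genes were called. The fit on all 12 libraries called 0 of 19 in Tex against Teff2. Without Tn replicates 1 and 3 the list kept 3 of 8 calls in Teff1, 5 of 9 in Tex and 3 of 9 in Teff2 (medians -0.34, -0.04 and 0.04).

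Of the voltage-gated calcium channel genes 9 of 18 were tested, of which 5 fell in each state and 1 rose in Tex and in Teff2 (medians -2.24, -1.64 and -1.76). Cacna1e and Cacna1i, 2 pore subunits, led the falls, but both were uneven in Tn, at 10.9 ± 9.20 and 20.5 ± 18.7 CPM, and their falls were smaller with Tn replicate 2 alone. Cacna1e then stood at -3.18 in Teff1, -4.03 in Tex and -6.67 in Teff2 on the log2 scale, against -7.17, -8.0 and -10.63 with all Tn libraries, and was called in Teff2 (adjusted p = 0.0292 by edgeR). Cacna1i stood at -2.53, -4.16 and -2.30 in the same states, against -7.30, -8.91 and -7.04, and was called in Tex (adjusted p = 0.044 by edgeR). These fitted values rest on counts at or near 0 in the activated states and are no bounds. In that fit 3 falls of the list remained in Teff1 and 4 in Tex and in Teff2. Of 4 volume-regulated anion channel genes tested, Lrrc8a, the obligatory subunit, fell to 23.8 ± 5.28 CPM in Teff1, 18.3 ± 2.20 CPM in Tex and 17.2 ± 3.51 CPM in Teff2, against 59.4 ± 10.9 CPM in Tn. Lrrc8d, a partner subunit, rose to 58.3 ± 22.6 CPM in Teff1, 84.0 ± 28.1 CPM in Tex and 70.3 ± 23.5 CPM in Teff2, against 25.1 ± 3.88 CPM in Tn. The Lrrc8d calls in Teff1 and Teff2 ended with Tn replicate 2 alone (adjusted p = 0.089 and 0.0528 by edgeR), where the log2 fold changes were 1.46 and 1.74, against 1.22 and 1.49 with all Tn libraries. Lrrc8c also fell in Teff1 and in Teff2, and the medians of the 4 were -0.42, -0.35 and -0.55. Of the calls of this list 2 remained in each state without Tn replicates 1 and 3.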

How the data were processed

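RNA-seq libraries of sorted mouse CD8+ T cells, 3 each of Tn, Teff1, Tex and Teff2, were analysed from the raw counts per gene symbol that the authors deposited as 1 table. All 12 columns matched a library by name, and 0 columns belonged to other samples. The authors also deposited normalized values on a log2 scale, whose transformation is not given in the sources used here, and these were used in 1 alternative. Per the submitters' processing notes the tools named were HISAT2, HTSeq, DESeq2, BWA and Juicer and the genome build mm10, without roles, versions or settings. Whether counting used strand is not given in the sources used here. The 4 Hi-C samples were not analysed here.

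Genes were kept by edgeR's filterByExpr, scaled by TMM and compared by quasi-likelihood F tests in edgeR 4.0.16 (R 4.3.3) over all 12 libraries, with group as the only term. CPM used TMM-scaled library sizes. The 6 comparisons between states were adjusted by Benjamini-Hochberg over all genes tested. Alternatives were DESeq2 1.42.0, limma 3.58.1 with voom, 2 other scalings, no filter, the replicate number as a block, 2 groups only and leaving out libraries. The procedure was tested on simulated data. Intervals and floors cover counting or replicate error only.

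Replicate numbers were taken to pair libraries where deviations from the group mean correlated over genes by more than 0.1 in every pair. This held for Tex and Teff2 (0.81, 0.72 and 0.67), so the pairs within day 5 were fitted as 2 groups with the block. It did not hold for Teff1 and Tn (0.15, 0.17 and 0). Teff2 and Teff1 (0.5, 0.25 and 0.04) and Tex and Teff1 (0.52, 0.29 and 0.05) fell short in replicate 3 only.

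All members are named. From each neighbouring list the rule took up to 2 called genes with the largest rise and 2 with the largest fall per comparison whose higher group averaged 2 CPM or more. For each member it took the 2 most alike genes. The text gives a selection of these, plus Kit, Cpa3, Tyr, Mlana, Dct, Pmel, Mir211 and Rpl14-ps1. Members and lists were chosen with earlier results of these data known, and the list counts without doubted libraries were added after the data were seen. Of the 162 list entries 161 had a row, some under an older symbol, which is printed first. Coordinates and start regions are from RefSeq on GRCm38.p6.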

Additional observations from a re-analysis of the deposited data

How the results depend on the processing

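Of 482 alternative fits of the 21 called changes of single members, 473 kept direction and call and 9 lost the call, all of Kcnn4 or P2rx7 and given above. The number of members called against Tn ranged over all alternatives between 5 and 8 in Teff1, 6 and 8 in Tex, and 5 and 8 in Teff2. With the replicate block on 12 libraries it was 7, 8 and 7, and with 2 groups and the block 8, 7 and 7. Between the activated states it moved as follows. In Teff2 against Teff1 it was 0, and 1 (P2rx7) with 2 groups and a replicate block or without replicate 1 of the activated states. In Tex against Teff1 it was 1, with 3 by DESeq2, 2 with the replicate block on 12 libraries, 2 with 2 groups and the block, and 2 without replicate 1. In Tex against Teff2 it was 0, and 1 (Trpm1) with 2 groups and the replicate block. Comparisons other than Tex with Teff2 did not meet the rule for pairs given above. The replicate block on 12 libraries also called P2rx7 in Teff1 against Tn (-2.36, adjusted p = 0.00408 by edgeR) and Kcna3 in Tex against Tn (-1.02, adjusted p = 0.0169). With 2 groups and the block Kcna3 was called in Teff1 against Tn (-0.57, adjusted p = 0.0306 by edgeR), and P2rx7 too (-2.10). P2rx7 in Teff1 was also called by limma-voom (-2.15) and on the authors' deposited values (-1.52, on a scale that is not stated). The cause of these shifts was not tested.

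Signs turned for differences that were not called with all libraries, and for no called one. Without replicate 1 of the activated states, Orai3 turned to 0.01 in Teff1 against Tn and to -0.08 in Tex against Teff1, and Stim1 to 0.03 in Tex against Teff2. In the same setting Orai2 turned to -0.21, Orai3 to -0.12, Stim2 to 0.01 and Kcna3 to -0.24 in Teff2 against Teff1. In Teff2 against Teff1, Orai1 was 0.02 and turned to -0.04 without a filter, -0.01 with voom, -0.02 with the deposited values and -0.02 with the block. Orai2 was 0.10 and turned to -0.02 with voom, -0.02 with the deposited values and -0.01 with 2 groups and the block, and Orai3 was 0.03 and turned to -0.03 without a filter. Leaving out single libraries gave, in Teff2 against Teff1, -0.20 to 0.18 for Orai1, -0.39 to 0.41 for Orai2, -0.16 to 0.20 for Orai3 and -0.51 to 0.46 for Kcna3. In Tex against Teff1 it gave -0.17 to 0.20 for Orai1, -0.52 to 0.10 for Orai2, -0.10 to 0.26 for Orai3 and -0.92 to 0.19 for Kcna3. In Tex against Teff2 it gave -0.18 to 0.30 for Orai1, -0.62 to 0.23 for Orai2, -0.02 to 0.20 for Orai3, -0.07 to 0.08 for Stim1, -0.13 to 0.02 for Stim2, -0.01 to 0.34 for Kcnn4, -1.11 to 0.33 for Kcna3 and -2.23 to 0.85 for P2rx7.

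The deposited values put Trpm1 at -2.21 and Orai2 at -2.19 in Tex against Tn, beside log2 fold changes of -3.45 and -2.93 by edgeR. The scale of the deposited values is not stated, so these sizes cannot be set against log2 fold changes. Only their directions and calls can be compared. Upper-quartile scaling put the median of all genes at -0.20 in Teff1 against Tn (-0.06 with TMM), at -0.12 in Tex and at -0.11 in Teff2 (0.00 with TMM). Levels per gene length were not run, because the annotation used here gives no exon lengths. Depth limits P2rx7 and Trpm1 at day 5.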
